A study of Arabidopsis thaliana with 4 samples.

Results

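The genes described here are those of 2 chromosome stretches of Arabidopsis thaliana, one on chromosome 3 from AT3G44100 to AT3G47000 and one on chromosome 4 from AT4G01897 to AT4G03340. Every probe set that the platform annotation gives to a single gene in these stretches was taken, apart from those for AT4G02060 and for the histone loci AT3G46320, AT3G45930, AT3G46030 and AT3G45980. This gave 225 probe sets for 223 genes, 143 on chromosome 3 and 80 on chromosome 4, out of 13355 genes named in the series. They include 133 of the 320 protein-coding loci that RefSeq lists (assembly TAIR10.1) in the chromosome 3 stretch and 79 of the 168 in the chromosome 4 stretch. The stretches were selected on the measured signals themselves, for holding many genes called lower in an3-4 in the same contrast that is described below. The direction and number of the changes are therefore a description of these arrays, with no test behind them.

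The arrays are 2 of the mutant an3-4 and 2 of wild type, both with the ecotype Col-0 in the labels. RNA came from the first set of leaf primordia, frozen 7 days after sowing from plants kept at 22 °C in continuous light. The labels do not say how many plants went into an array, whether the replicates came from separate cultures, or how the allele was made and crossed. The spread between arrays may therefore be technical. AN3 itself was not analysed here, because no probe set carries its name in the annotation, so the genotype labels stand unchecked. Of the 9 leaf primordium markers chosen, 5 were named and all 5 passed the filter on dim signals explained below. JAG had 46.2 and 51.8 on the an3-4 arrays and 60.8 and 86.7 on the wild-type arrays, the largest difference of the 5. None of the 5 was called lower or higher. Their log2 fold changes (an3-4 over wild type) were -0.57 for JAG, -0.31 for SPCH, -0.06 for YAB3, 0.11 for YAB5 and 0.12 for PHV. The meristem marker CLV3 and the root marker EXPA7, the others named, were under that filter on these arrays.

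ANGUSTIFOLIA3, also known as GIF1, is a transcriptional coactivator that works with GROWTH-REGULATING FACTOR proteins and keeps the cells of young leaves dividing, and its mutants form narrow leaves with fewer cells. Genes that lie side by side on a plant chromosome are often copies that arose by tandem duplication, and such clusters commonly hold disease resistance genes, cytochromes P450, glycosyltransferases and transporters. The chromosome 3 stretch holds several such clusters. The chromosome 4 stretch mixes metabolic, chloroplast and housekeeping genes, and it also holds groups of related genes, such as the AOP glucosinolate and pectin methylesterase genes.

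Across both stretches 16 genes were lower and 7 higher in an3-4, out of 98 genes whose signal passed the filter. A gene was called at a limma adjusted p under 0.05 over all 13647 probe sets tested, with the arrays brought to a single trimmed mean and the 40% dimmest probe sets left out. In the chromosome 3 stretch 49 of 143 genes passed the filter, and 9 of them were lower and 6 higher. In the chromosome 4 stretch 49 of 80 passed, and 7 were lower and 1 was higher. Over all 7327 named genes that passed, 5.28% were lower and 5.98% higher, 387 and 438 genes. With each array centred on its median in place of the trimmed mean, the split over all genes was 483 lower and 350 higher. As the stretches were chosen for lower calls, nothing is read from the larger share of lower genes. On the signals as deposited, where the arrays numbered 1 and those numbered 2 sit on separate scales, the 2 stretches kept 4 and 6 lower calls, against 1.54% of all genes lower, and 2 and 1 higher calls, against 1.32% of all genes higher. In leaf RNA a lower signal can come, among other things, from fewer cells of a type or from less transcript per cell. These cannot be told apart here.

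**Figure D1:**
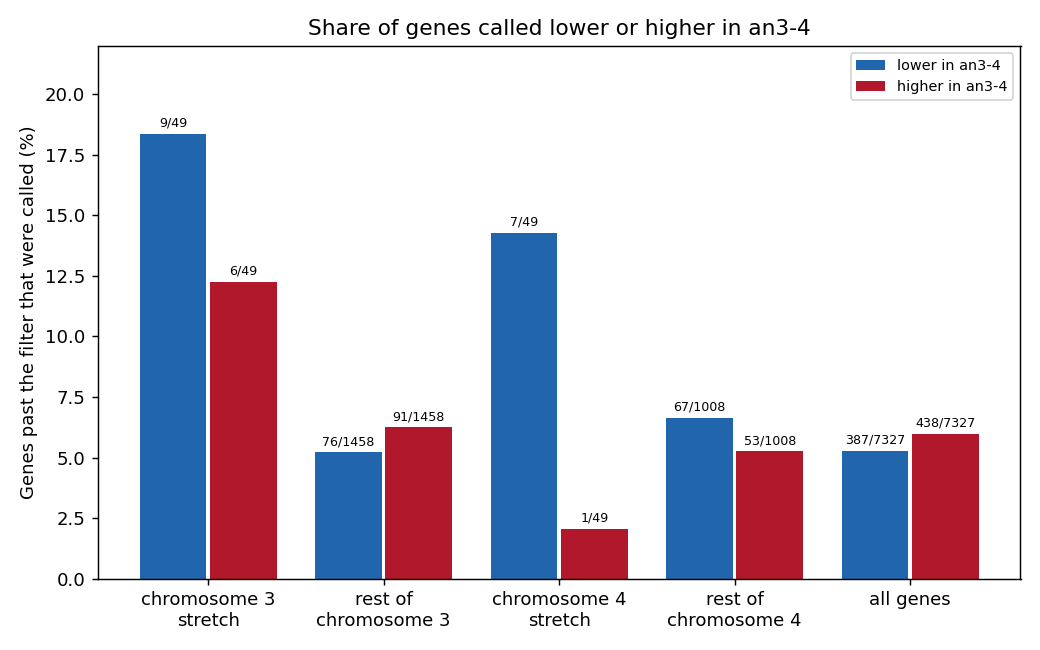
Share of genes past the filter that were called lower (blue) or higher (red) in an3-4, with the counts above each bar, for each stretch, the rest of its chromosome and all genes. The stretches were chosen for their lower genes, so their tall blue bars follow from the choice; the rest of chromosome 3 had 76 lower of 1458 and the rest of chromosome 4 had 67 lower of 1008.

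The median change was near 0 in both stretches. It was -0.00 on the log2 scale (an3-4 over wild type) in the chromosome 3 stretch and -0.04 in the chromosome 4 stretch, against 0.02 over all genes past the filter. In the chromosome 3 stretch 25 genes had a negative and 24 a positive log2 fold change. In the chromosome 4 stretch 26 were negative and 23 positive. Both an3-4 arrays lay below both wild-type arrays for 18 genes of the chromosome 3 stretch and 20 of the chromosome 4 stretch, and above them for 16 and 12. Over all genes past the filter the shares were 23.4% below and 28.7% above.

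On chromosome 3 the lower genes gathered towards the start of the stretch. From AT3G44430 to AT3G44970, a part marked out after the values were seen, 7 of 12 genes past the filter were lower and none was higher. This part starts and ends with a lower gene, so its share is partly set by the choice. Over all genes past the filter 5.28% were lower and 5.98% higher. In the rest of the stretch 2 of 37 (5.41%) were lower, AT3G44100 and AT3G46450, and all 6 higher genes (16.2%) lie there. They came after the lower genes, from scpl48 to AT3G46960, with the lower AT3G46450 among them.

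**Figure D2:**
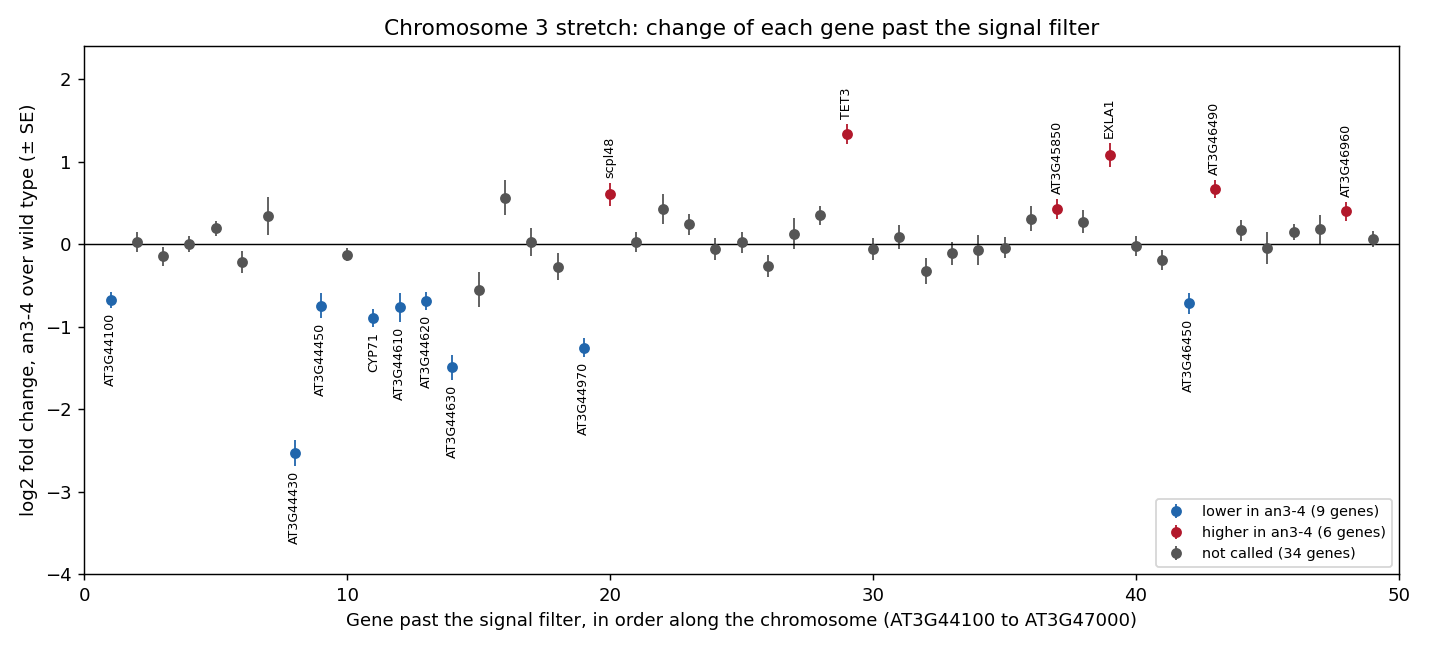
Log2 fold change of an3-4 over wild type for the 49 genes of the chromosome 3 stretch that passed the signal filter, in chromosome order. Bars are ± the moderated SE from limma, which also draws on other probe sets. Blue marks the 9 genes called lower, red the 6 called higher and grey the 34 that were not called; all blue points but that of AT3G46450 lie to the left of every red point.

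AT3G44430, for which no role is given here, had the largest fall among the genes of both stretches that passed the filter. Its signal was 34.6 and 44.2 on the an3-4 arrays, against 211 and 242 on the wild-type arrays. The log2 fold change was -2.53 ± 0.16 (moderated SE from limma, n = 2 arrays each). Every SE printed here is of this kind. It also draws on probe sets of like brightness, so it is not the spread of the gene's own arrays. On one an3-4 array the signal was below that array's 40th percentile, and with the percentile put in its place the change was -2.48. The next gene past the filter, AT3G44450, encodes a small protein that inhibits the cryptochrome blue-light receptors. It had 102 and 78.3 in an3-4, against 164 and 136 in wild type, a log2 fold change of -0.75 ± 0.16. The genotypes do not overlap for either gene, both of which were picked by their call. AT3G44450 lost its call without wild-type replicate 1 (-0.61) or without an3-4 replicate 2 (-0.56).

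A run of 4 neighbouring genes, from CYP71 to AT3G44630, was lower throughout, with no other protein-coding locus of the RefSeq table between them. CYP71 encodes a nuclear cyclophilin with WD40 repeats that binds histone H3 and is needed for normal organ formation. Its signal was 117 and 126 in an3-4, against 222 and 229 in wild type, a log2 fold change of -0.89 ± 0.11. AT3G44610 encodes a protein kinase of the AGC family. It had 53.9 and 75.4 in an3-4, against 109.7 and 107 in wild type, a log2 fold change of -0.77 ± 0.17. Its an3-4 arrays differ from each other more than those of its neighbours, and it is the least stable call of the run. Dropping an3-4 replicate 1 ended the call (-0.52), and so did dropping either wild-type array (-0.75 without the first, -0.78 without the second).

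AT3G44620 encodes a low-molecular-weight protein tyrosine phosphatase. It had 143 and 155 in an3-4, against 232 and 248 in wild type, a log2 fold change of -0.69 ± 0.11. AT3G44630, the last gene of the run, encodes a disease resistance protein of the TIR-NBS-LRR class, the intracellular immune receptors of plants. Its signal was 60.4 and 49.8 in an3-4, against 155 and 154 in wild type, a log2 fold change of -1.49 ± 0.15. The 4 genes of the run thus spanned log2 fold changes from -1.49 to -0.69. AT3G44590, which encodes an acidic ribosomal protein and is the measured gene just before CYP71, was not called. It had 1515 and 1601 in an3-4, against 1670 and 1734 in wild type, a log2 fold change of -0.13 ± 0.08.

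AT3G44970, a cytochrome P450 gene, had 386 and 341 in an3-4, against 972 and 771 in wild type, a log2 fold change of -1.26 ± 0.11. Between AT3G44630 and AT3G44970, 4 genes passed the filter and none was called. The largest differences among them were AT3G44820 at 0.56 ± 0.21 and AT3G44740 at -0.55 ± 0.21. At the start of the stretch, AT3G44100 fell by 0.68 on the log2 scale and encodes a protein with a lipid-recognition domain of the MD-2 type. AT3G46450 encodes a SEC14-type phospholipid transfer protein. It had 91.7 and 89.6 in an3-4, against 154 and 144 in wild type, a log2 fold change of -0.72 ± 0.13. The gene past the filter before it, AT3G46220, was not called at -0.19 ± 0.13, and the one after it, AT3G46490, was higher.

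Of the higher genes of chromosome 3, TET3 and EXLA1 rose most. TET3 encodes a tetraspanin, a membrane protein that organises other proteins in the plasma membrane and at plasmodesmata. Its signal was 274 and 245 in an3-4, against 108 and 98.0 in wild type, a log2 fold change of 1.33 ± 0.12, or 2.51-fold higher. EXLA1 encodes an expansin-like cell wall protein. It had 129 and 122 in an3-4, against 60.9 and 57.6 in wild type, a log2 fold change of 1.08 ± 0.15. Its close relative EXLA3, in the same stretch, was under the filter with 4.00 and 2.14 in an3-4 and 1.26 and 4.68 in wild type.

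AT3G46490 encodes an oxygenase that uses 2-oxoglutarate and iron. It had 402 and 369 in an3-4, against 269 and 219 in wild type, a log2 fold change of 0.67 ± 0.11. The serine carboxypeptidase-like gene scpl48 had 135 and 133 in an3-4, against 82.0 and 95.8 in wild type, a log2 fold change of 0.60 ± 0.14. AT3G45850, which encodes a kinesin-5 motor of the mitotic spindle, rose by 0.42 ± 0.12 on the log2 scale. AT3G46960, which encodes an RNA helicase that assists the exosome in RNA decay, rose by 0.39 ± 0.12. The calls of scpl48 and of these 2 genes were not stable to leaving out an array. The call of scpl48 ended when wild-type replicate 1 was dropped (0.49) and when either an3-4 array was (0.59 without the first, 0.61 without the second). That of AT3G45850 ended without wild-type replicate 2 (0.29) or without either an3-4 array (0.42 and 0.43). AT3G46960 lost its call whichever array was left out, with log2 fold changes from 0.29 to 0.50. AT3G45900, which lies between AT3G45850 and EXLA1, was not called at 0.27 ± 0.13.

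On chromosome 4 the lower genes were again close together. From AT4G02530 to AT4G02860, a part marked out after the values were seen, 6 of 13 genes past the filter were lower and none was higher. This part too starts and ends with a lower gene, so its share is partly set by the choice. In the rest of the stretch 1 of 36 was lower and 1 was higher, 2.78% each. Over all genes past the filter the shares were 5.28% lower and 5.98% higher. The 7 lower genes of this stretch kept a negative log2 fold change whichever array was left out. As their genotypes do not overlap, this was fixed in advance and adds no support.

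**Figure D3:**
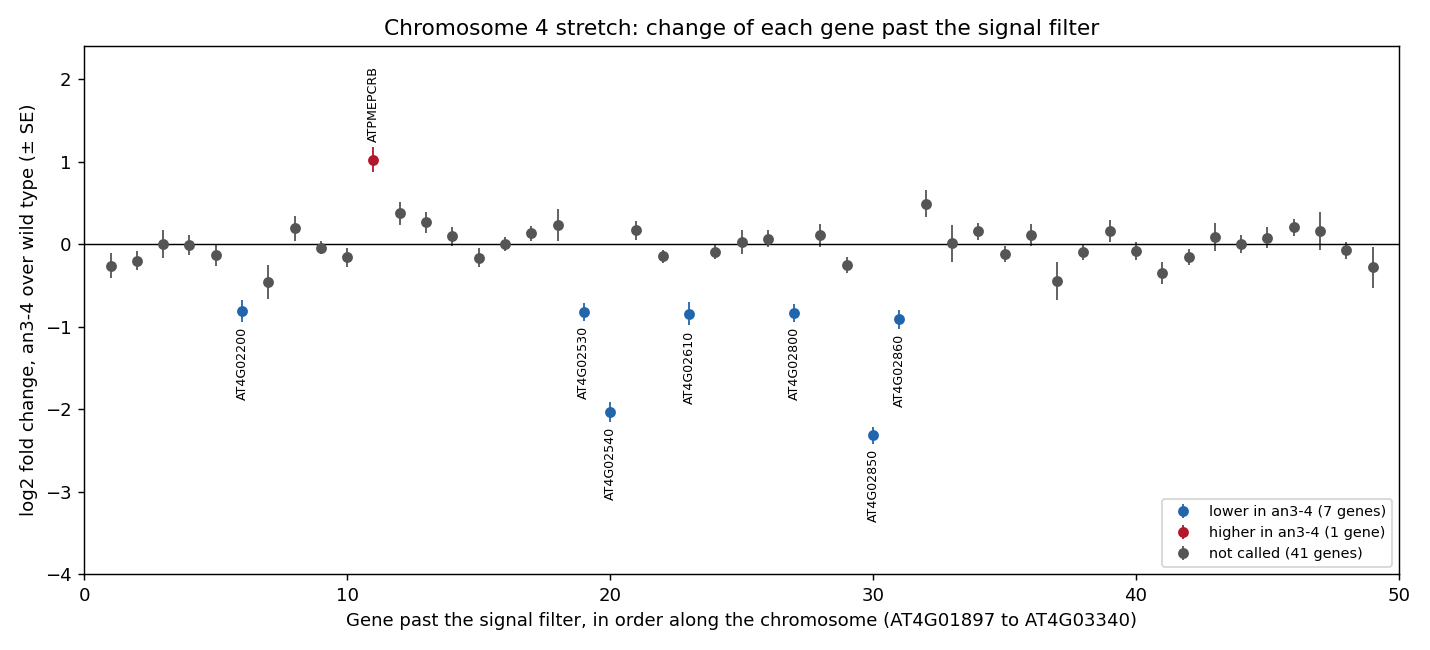
Log2 fold change of an3-4 over wild type (± moderated SE) for the 49 genes of the chromosome 4 stretch that passed the signal filter, in chromosome order. Blue marks the 7 genes called lower, red the 1 called higher and grey the 41 that were not called; AT4G02540 and AT4G02850 stand below -2, and no gene to the right of AT4G02860 was called.

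The lower genes of chromosome 4 include 2 pairs of direct neighbours. AT4G02850 and AT4G02860 both encode proteins of the PhzC/PhzF family, named after bacterial phenazine biosynthesis enzymes, and no protein-coding locus lies between them. AT4G02850 had 88.4 and 90.6 in an3-4, against 459 and 434 in wild type, a log2 fold change of -2.32 ± 0.11, or 4.99-fold lower. AT4G02860 had 145 and 164 in an3-4, against 302 and 278 in wild type, a log2 fold change of -0.91 ± 0.11. The genotypes do not overlap for either gene, though both were picked by their call. The genes on either side, AT4G02840 at -0.25 ± 0.10 and AT4G02880 at 0.49 ± 0.16, were not called.

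The other pair is AT4G02530 and AT4G02540. AT4G02530 encodes a protein of the chloroplast thylakoid lumen. It had 461 and 361 in an3-4, against 699.7 and 739 in wild type, a log2 fold change of -0.82 ± 0.11. AT4G02540 encodes a cysteine- and histidine-rich protein with C1 domains. It had 91.7 and 110.1 in an3-4, against 435 and 392 in wild type, a log2 fold change of -2.04 ± 0.12, or 4.11-fold lower. AT4G02550, the next gene, was under the filter, with 12.3 and 23.7 in an3-4 and 36.4 and 34.7 in wild type. LD, a regulator of flowering time that follows, was not called at 0.16 ± 0.12.

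The remaining lower genes of chromosome 4 stand alone among their measured neighbours. AT4G02610 encodes an enzyme that releases indole from an intermediate of tryptophan synthesis. It had 68.6 and 71.4 in an3-4, against 122 and 129 in wild type, a log2 fold change of -0.85 ± 0.14. AT4G02800, for which no role is given here, had 182 and 212 in an3-4, against 344 and 355 in wild type, a log2 fold change of -0.83 ± 0.11. AT4G02200, outside the denser part, belongs to a family of drought-responsive zinc-binding proteins. It had 123 and 99.8 in an3-4, against 207 and 184 in wild type, a log2 fold change of -0.81 ± 0.13. The genotypes do not overlap for any of these 3 genes, which were picked by their call. The gene that rose, ATPMEPCRB, encodes a pectin methylesterase, an enzyme that modifies cell wall pectin. Its signal was 113 on both an3-4 arrays, against 55.1 and 56.2 in wild type, a log2 fold change of 1.02 ± 0.15.

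**Figure D4:**
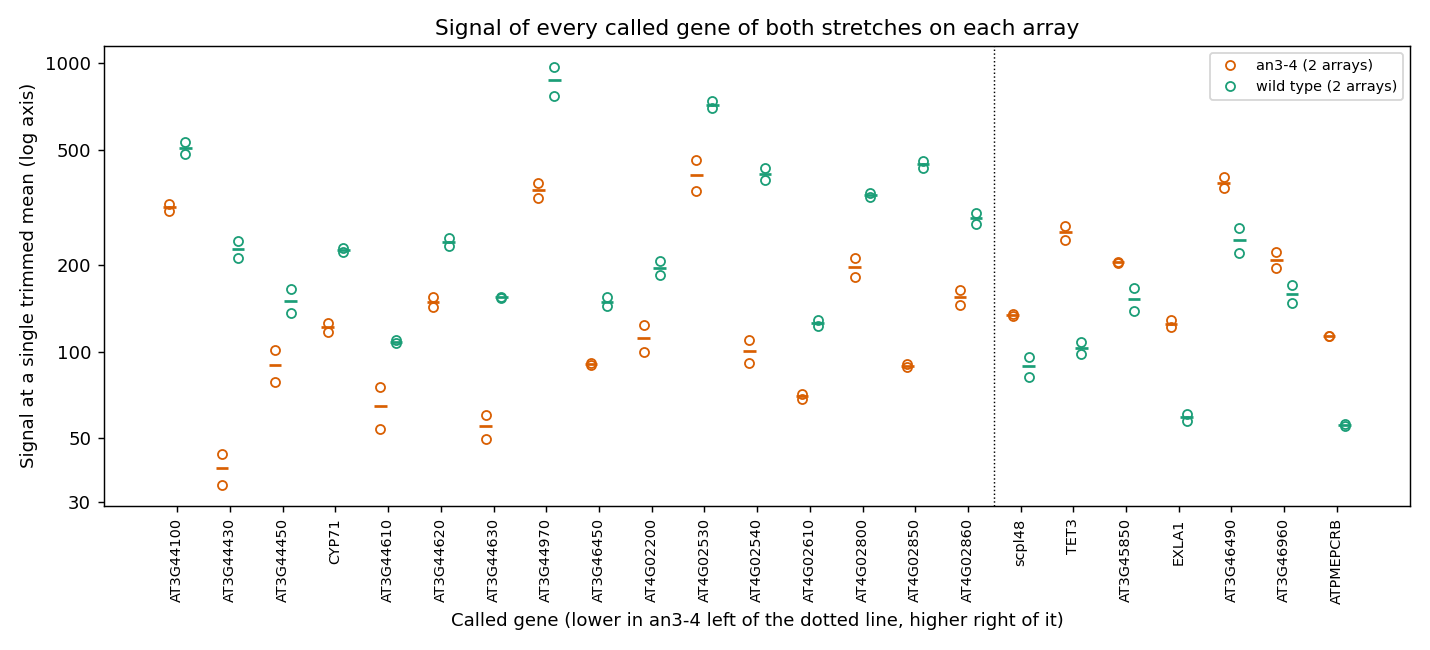
Signal on each array, at a single trimmed mean and on a log axis, for the 23 called genes of both stretches, with an3-4 (orange) left of wild type (green) for each gene; circles are arrays and bars are means. The 16 lower genes are left of the dotted line and the 7 higher genes right of it. The arrays of the 2 genotypes do not overlap for any of them, which adds no support, as the genes were picked by their call. Over all genes past the filter, both an3-4 arrays lay below both wild-type arrays for 23.4% and above them for 28.7%.

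The changes between arrays of the same number are given here for some called genes, as a description. The numbers were not taken as pairs. Called genes were picked for a small spread within genotypes, so like values add no support. AT3G44430 had -2.61 between the arrays numbered 1 and -2.46 between those numbered 2. AT4G02850 had -2.38 and -2.26, and TET3 had 1.34 and 1.32. The values differed more for AT3G44610, at -1.03 and -0.50, and for AT4G02530, at -0.60 and -1.03. All 23 called genes kept their direction whichever array was left out. As their genotypes do not overlap, this was fixed in advance and adds no support. Those that lost their call in some such fit are named above. How often called genes outside the stretches keep theirs was not worked out.

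Among the genes past the filter that were not called, the largest differences exceeded those of the called AT3G45850 and AT3G46960. On chromosome 3 the 34 uncalled genes had log2 fold changes from -0.55 to 0.56, and on chromosome 4 the 41 uncalled genes had -0.46 to 0.49. Of these, AT4G02230 and AT4G02930, which encode a ribosomal protein and a mitochondrial elongation factor, had -0.04 ± 0.07 and -0.12 ± 0.10. The glucosinolate gene AOP1, which encodes a dioxygenase, had -0.08 ± 0.11, with 174 and 185 in an3-4 against 200.3 and 181 in wild type. Of the 3 genes in that cluster, AOP3 was under the filter and AOP2 was not analysed here.

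The tandem clusters were mostly too dim to compare. Of the 7 disease resistance genes listed for the stretch, 4 were named and 1 passed the filter, the lower AT3G44630. AT3G44400, AT3G46710 and AT3G46730 had signals of at most 20.8. All 7 genes of the UGT76 glycosyltransferase cluster were named and none passed; UGT76E11, for example, had 31.9 and 27.0 in an3-4 and 35.5 and 36.2 in wild type. Of the 5 named genes in the NPF2 transporter cluster, AT3G45680 passed and was not called, at -0.33 ± 0.16. None of the 4 named leucine-rich repeat kinase genes passed. Of the 3 pectin methylesterase genes, ATPMEPCRB passed and was higher, and the other 2 were under the filter. Of 7 genes of chlorophyll breakdown, NOL on chromosome 5 was the one named, and it was not called at 0.18 ± 0.11. The lists for nitrilases, fatty acyl-CoA reductases, jasmonate synthesis, lectin receptor kinases, mismatch repair, plastid protein import and plastid electron transport had no named gene and were not analysed here.

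Under the filter were 94 genes of the chromosome 3 stretch and 31 of the chromosome 4 stretch, and 116 of these 125 genes had all 4 signals under the 40th percentile of their arrays. For 14 and 4 of them both an3-4 arrays lay below both wild-type arrays, and for 17 and 7 above. Over all 6028 genes under the filter the shares were 16.2% below and 17.4% above. The dim genes of the stretches were therefore split much like dim genes elsewhere. The largest log2 fold changes among them were -3.19 for the pseudogene AT3G45360 and 4.50 for AT4G03156, which had 17.3 and 26.7 in an3-4 against 0.72 and 1.25 in wild type. Such values lie at the bottom of the signal range and give no usable fold.

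The edges of the stretches were set by counting genes in blocks, and calls also occur outside them. Over all genes past the filter 5.28% were lower and 5.98% higher. Of the 25 genes past the filter before the chromosome 3 stretch 4 were lower and 5 higher, and of the 25 after it 3 were lower and 3 higher. On chromosome 4, 1 was lower and 1 higher of the 25 before, which is near the shares over all genes. Of the 25 after, 6 were lower and 2 higher. Just inside the first edge lay AT3G44100 at -0.68 ± 0.09 and just outside it AT3G44070 at 0.17 ± 0.24. At the far edge AT3G47000 had 0.06 ± 0.10 inside and AT3G47070 had 0.12 ± 0.09 outside. On chromosome 4, AT4G01897 inside had -0.26 ± 0.15 and AT4G01880 outside had -0.32 ± 0.16. At its far edge AT4G03340 inside had -0.28 ± 0.25 and AT4G03410 outside had 0.21 ± 0.24.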

How the data were processed

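The deposited file holds linear signal intensities of 22810 probe sets, 64 of them controls, made by the authors with MAS5 per the submitters' processing notes. Its version and scaling target are not given in the sources used here. As deposited, the mean signal with 2% trimmed from each end came to 142 for each array numbered 1 and 168 for each numbered 2, so all arrays were brought to 1 trimmed mean of 154. Log2 signals were then fitted in limma 3.58.1 under R 4.3.3 (lmFit, eBayes with an intensity trend, genotype as the only term) without controls and without the dimmest 40% of probe sets by mean log2 signal. This leaves 13647 probe sets and 2 residual degrees of freedom, beside 11.1 prior degrees of freedom drawn from all probe sets tested. Every SE printed is the moderated one of this fit. Calls used a Benjamini-Hochberg adjusted p under 0.05. The number of arrays limits the precision, since arrays carry no counting depth. No detection calls were used, and the 40th percentile of each array served as a bound.

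Of 13513 probe sets with 1 listed gene, 13436 matched the RefSeq gene table (TAIR10.1), which gave loci and their order, with no coordinates taken. Another 503 probe sets list several genes and 8730 none, and these were not used for the stretches. Each gene stands by its brightest probe set (mean log2 signal); 2 genes had more than 1. Roles of genes are general background knowledge of each locus and do not come from the files. The members, the gene lists, the scale and the tests were chosen with earlier results of these data known. The genes named are all called members, uncalled members of the 14 lists or beside called ones, and the extremes under the filter; other genes named were chosen after their values were seen. The alternatives tried were the deposited scale, median centring, quantile normalization, a 60% filter, no filter, dropping each array in turn, a block for the replicate number, robust eBayes, no intensity trend, 32 added to each signal, a threshold of 0.1, a rule with no test that needs every array at least 2-fold apart, and counting each probe set by itself.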

Additional observations from a re-analysis of the deposited data

How the results depend on the processing

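Every called gene of the stretches kept its direction under all alternatives that tested it. As the genotypes do not overlap for any of these genes, leaving out an array could not have reversed them. The counts of 9 lower and 6 higher genes on chromosome 3 and 7 lower and 1 higher on chromosome 4 became 4, 2, 6 and 1 on the signals as deposited, and 2, 2, 2 and 1 under the rule with no test that every array be at least 2-fold apart. Leaving out 1 array gave 7 to 8 lower and 3 to 4 higher on chromosome 3, and 7 to 8 lower and 1 to 3 higher on chromosome 4, in fits that take the spread of the single remaining array from the genotype with 2. The higher count of chromosome 4 was 0 with the 60% filter, which leaves ATPMEPCRB untested, and 2 with no filter, with the replicate block or at an adjusted p under 0.1. Over all genes, 387 lower and 438 higher became 113 and 97 as deposited, 234 and 270 without the intensity trend, 42 and 38 under the rule with no test, and 250 to 296 and 243 to 312 without 1 array; with no filter 291 were higher. The replicate block gave 9 lower and 7 higher genes on chromosome 3 and 9 lower on chromosome 4. Probe set by probe set, same-numbered arrays did not deviate together (correlation of deviations 0.0353), so the numbers were not taken as pairs. This correlation cannot see a shift of a whole array, such as the scale that same-numbered arrays share as deposited. The other alternatives kept all these counts within 1.5 times. The cause of these differences was not tested.

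Both genotypes have 2 arrays, and dim genes sit where signal and background cannot be separated.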
